A study of Mus musculus with 6 samples.

Results

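A set of 10 genes of the Polycomb system were followed in differentiating mouse embryonic stem (ES) cells in which the microRNAs miR-200c and miR-141 could be switched on. The 10 genes were Bmi1 and Suz12, which are literature targets of the miR-200 family, and Ezh1, Ezh2, Eed, Jarid2, Rnf2, Ring1, Pcgf2 and Pcgf6. They were taken by name from the 18193 genes on the array that had a probe set with a single symbol, and each was represented by its probe set with the highest mean. Of the 10, 9 reached the level set for testing, as did 9997 genes in all. Ring1 did not, because its highest intensity was 48.2 and the level was 80.1.

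All 6 arrays came from 1 line, A2.miR200c, made from modified A2lox cells by placing a cassette of miR-200c and miR-141 in the p2lox vector under a promoter that doxycycline turns on. Cells were taken off feeders, formed embryoid bodies in Petri dishes in serum, and were either left untreated (3 arrays) or dosed with doxycycline at 500 ng/mL on day 2 and again on day 4 (induced, 3 arrays). Arrays were run on RNA of day 3, day 4 and day 5, with 1 untreated and 1 induced array on each day, on Affymetrix MOE430 2.0 arrays. There was no replicate within a day, so the spread used below is that over the 3 days, and nothing in the sources used here says that the days were separate cultures. The arrays include no doxycycline-treated line without the cassette, so effects of the drug and of the microRNAs cannot be told apart, and they do not measure the mature microRNAs.

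Polycomb proteins keep developmental genes silent and work in 2 kinds of complex. Polycomb repressive complex 2 (PRC2) places the silencing H3K27 methyl mark on histones, with Ezh2 or Ezh1 as the catalytic subunit, Suz12 and Eed as core partners, and Jarid2 as an accessory subunit that helps to recruit it. Polycomb repressive complex 1 (PRC1) ubiquitylates histone H2A through Rnf2 (also called Ring1b) or Ring1, each paired with a PCGF protein such as Bmi1, Pcgf2 (Mel18) or Pcgf6. In ES cells the system holds lineage genes in a silent but inducible state, and the make-up of both complexes is known to change as cells differentiate. MicroRNAs of the miR-200 family act mainly through the seed at their 5′ end, which pairs with sites in target messages, and are best known for lowering the repressors Zeb1 and Zeb2 and so keeping cells epithelial.

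The mature microRNAs of the induced cassette are shown with the seed, bases 2 to 8 from the 5′ end, in capitals, since the seed is what separates the sites each can pair with. The sequences are those of RefSeq on GRCm38.p6. Both genes lie on the minus strand of chromosome 6, with miR-200c-3p at chr6:124718324-124718346 and miR-141-3p at chr6:124717917-124717938.
mmu-miR-200c-3p: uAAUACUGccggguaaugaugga
mmu-miR-141-3p: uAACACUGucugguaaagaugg
The 2 seeds differ by 1 substitution, U4C, counted from the 5′ end of the mature RNA. The other family members, which the cassette does not hold, fall into the same 2 seed groups. The seed of miR-200c-3p is shared by miR-200b-3p and miR-429-3p, and that of miR-141-3p by miR-200a-3p.
mmu-miR-200b-3p: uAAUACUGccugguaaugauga
mmu-miR-429-3p: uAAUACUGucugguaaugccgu
mmu-miR-200a-3p: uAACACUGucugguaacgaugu
The cassette was amplified from the genome with the pair of primers below, which set its ends, and the restriction site that each carries for cloning is in capitals.
Forward primer: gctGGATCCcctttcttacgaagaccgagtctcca
Reverse primer: ctaGATATCcctcaagaggaggtgcccagg
Sites matching these seeds in the messages of the 10 genes were not analysed here.

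Values are model-based intensities in array units, and differences are on the log2(intensity + 50) scale, which understates the changes of dim genes. Intensities of different probe sets are not on a common scale, so no gene's level was set against another's. Median intensity lay between 34.5 and 36.9 on all 6 arrays, and a background level of 36.8 was set from 76 receptor genes not expected in these cells. Hprt, into whose locus the A2lox system places its cassette, was higher on each induced array, at 234, 125 and 102 untreated and 1671, 2539 and 2977 induced on days 3, 4 and 5. No gene passed the test of a constant induction difference over the 3 days (limma, Benjamini-Hochberg adjustment over 9997 genes, 0 called, 842 with an unadjusted p under 0.05), and Hprt itself, with a mean difference of 3.60, had an adjusted p of 0.573. A member that did not pass is therefore not shown to be unaffected.

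Bmi1, a PCGF subunit of canonical PRC1, increased during differentiation, and its intensity was lower with the microRNAs induced on days 4 and 5. Its intensity (probe set 1417493_at, Entrez Gene 12151) was 178, 322 and 494 on days 3, 4 and 5 in untreated cells and 203, 233 and 361 in induced cells. The induced array was thus the higher of the pair on day 3 and the lower on both later days, and in either treatment each day was above the day before. The induced minus untreated difference in log2 units was 0.15 on day 3, -0.39 on day 4 and -0.41 on day 5. On day 4 only 3% of the tested genes had a lower difference than Bmi1, on day 5 6.4%, and on day 3 87.2%. The mean difference of -0.22 ± 0.32 (SD over 3 days) did not pass (limma, adjusted p = 0.638, 95% confidence interval -0.56 to 0.13). The change of the difference per day, -0.28 ± 0.11 (SE), did not pass either (limma, unadjusted p of 0.0481, adjusted p = 0.373). The bulk RNA does not tell fewer cells that express a gene from less RNA per cell.

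Suz12, the PRC2 core subunit, showed no lowering on any of the 3 days with its main probe set (1420021_s_at, Entrez Gene 52615). Intensities were 2165, 1920 and 1816 untreated and 2279, 2086 and 1868 induced on days 3, 4 and 5. The induced array was the higher of the pair on all 3 days, and both treatments declined from day to day. The differences were 0.07, 0.12 and 0.04 in log2 units, with a mean of 0.08 ± 0.04 (SD over 3 days, limma adjusted p = 0.641) and a 95% confidence interval of -0.05 to 0.20. That interval is unadjusted, belongs to 1 probe set and takes the difference as constant over the 3 days. The means of the other Suz12 probe sets ran from -0.08 to 0.34. The change of the difference per day was -0.02 ± 0.06 (SE, limma adjusted p = 0.94).

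**Figure D1:**
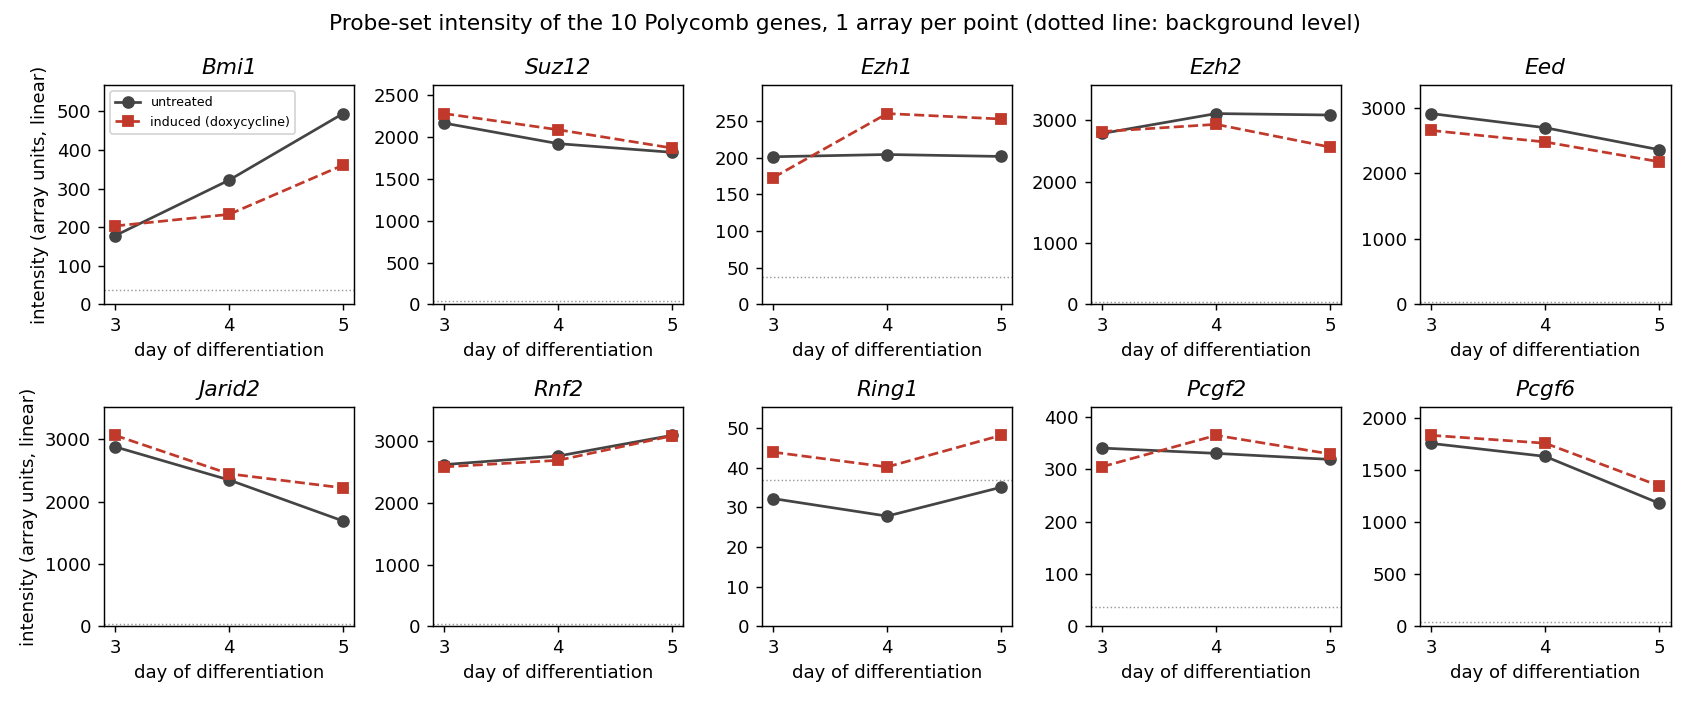
Intensity of each of the 10 genes (vertical axes, array units, linear from 0 and scaled to each gene) against the day of differentiation, with untreated arrays as grey circles, induced arrays as red squares and the background level of 36.8 as a dotted line. Each point is 1 array without error bars; Bmi1 climbs in both treatments with the induced line lower on days 4 and 5, while Suz12, Eed, Jarid2 and Pcgf6 decline and Ring1 stays near the background.

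Among the other PRC2 genes, Jarid2 had the largest difference between treatments on a single day, on day 5. Jarid2 measured 2878, 2347 and 1689 untreated and 3063, 2445 and 2219 induced, so that the induced value was higher on each day and the gap widened on the last. In log2 units the differences were 0.09, 0.06 and 0.38, and their mean of 0.18 ± 0.18 (SD over 3 days) did not pass (limma, adjusted p = 0.573). Ezh2, the main methyltransferase of ES cells, measured 2784, 3107 and 3084 untreated and 2815, 2932 and 2562 induced, with a difference that went from 0.02 to -0.08 and -0.26. Its change per day of -0.14 ± 0.05 (SE) did not pass (limma, unadjusted p of 0.0347, adjusted p = 0.336).

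Eed, which binds the methylated histone tail, had a small difference that was much the same on each day. It measured 2909, 2693 and 2358 untreated and 2651, 2476 and 2175 induced. The induced array was lower by a near equal step on all 3 days, at -0.13, -0.12 and -0.11 in log2 units. The mean of -0.12 ± 0.009 (SD over 3 days) had an unadjusted p of 0.0323 and an adjusted p of 0.573 (limma). Such evenness was not particular to Eed, since the SD over days was 0.011 for Ring1 and 0.016 for Rnf2. Ezh1, the alternative methyltransferase of less proliferative cells, measured 201, 204 and 202 untreated, within 4 units of each other, and 173, 260 and 253 induced. Its mean difference of 0.13 ± 0.26 changed sign between day 3 and day 4 (limma, adjusted p = 0.752).

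On their main probe sets, the PRC1 members other than Bmi1 differed between treatments by at most 0.21 on any day, for Ring1 on day 4. The other probe sets of Pcgf6 differed by more on day 5, by 0.40 and 0.37. Rnf2, the catalytic ubiquitin ligase, was nearly superimposable at 2621, 2759 and 3095 untreated and 2584, 2690 and 3087 induced. Its mean difference of -0.02 ± 0.02 (SD over 3 days) had a 95% confidence interval of -0.12 to 0.08 (limma, adjusted p = 0.892). Pcgf6, the PCGF subunit of a variant PRC1 that ES cells use to keep germ-line genes silent, measured 1760, 1635 and 1184 untreated and 1838, 1762 and 1352 induced. Its induced array was higher on all 3 days, by 0.06, 0.10 and 0.18, with a mean of 0.12 ± 0.06 that did not pass (limma, adjusted p = 0.585). Pcgf2, the closest relative of Bmi1, measured 341, 331 and 319 untreated and 305, 365 and 329 induced, with differences of either sign and a mean of 0.01 ± 0.13 (limma, adjusted p = 0.98). Ring1 measured 32.2, 27.8 and 35.1 untreated and 43.9, 40.2 and 48.2 induced, above the background level on the 3 induced arrays only, and it was not tested.

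The members were also counted by size of difference between the arrays of a day, with 0.322 on the log2 scale as the mark. With so few members, a single call shows neither a departure from the share of all genes nor nearness to it. On day 3 none of the 9 tested reached the mark, where 1.66% of all tested genes were higher and 2.59% lower by that much. On day 4 Bmi1 was lower by 1.31-fold on that scale, against a background of 4.16% of genes lower and 5.96% higher. On day 5 Bmi1 was lower by 1.32-fold and Jarid2 higher by 1.31-fold, when 8.86% of genes were lower and 13.1% higher. No member was called for a constant difference or for a change of the difference per day, and the share of all genes called was 0% in both tests. For the change per day 1322 genes had an unadjusted p under 0.05, Bmi1 and Ezh2 among them, and the smallest adjusted p of any gene was 0.105 (limma).

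**Figure D2:**
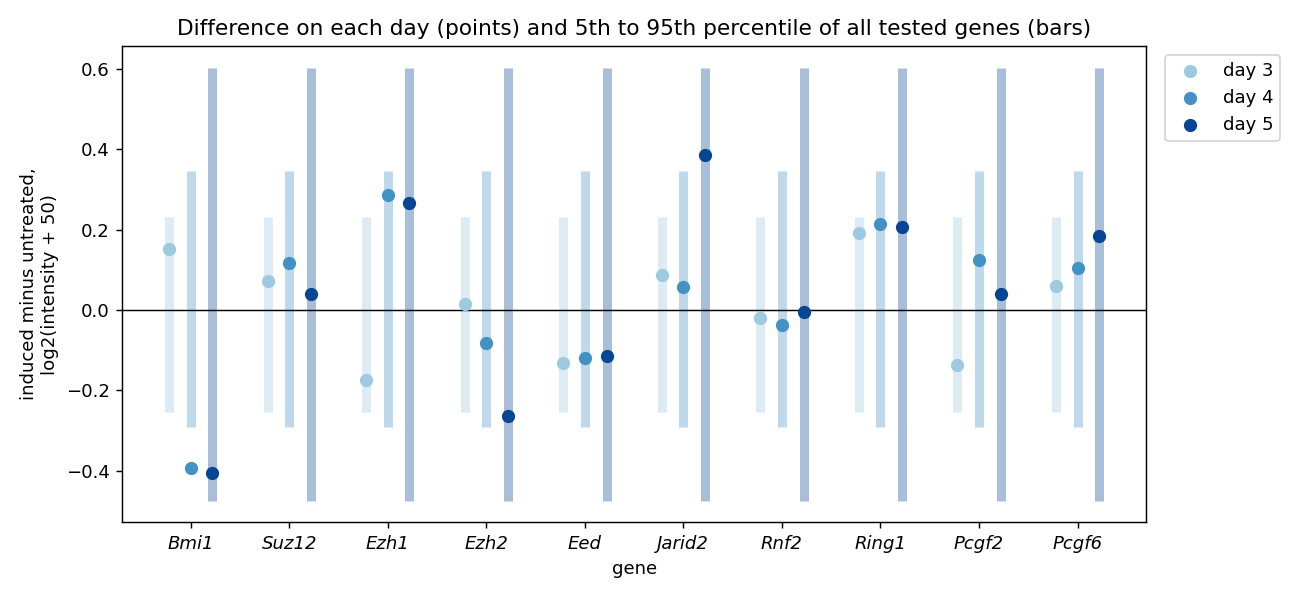
Induced minus untreated difference of each gene on days 3, 4 and 5 (vertical axis, log2(intensity + 50)), with 1 point per day and bars that span the 5th to the 95th percentile of the 9997 tested genes on that day. The bars lengthen from day 3 to day 5; Bmi1 on day 4, at -0.39, is the only point of a member outside its bar, whose lower end is at -0.29.

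Between day 3 and day 5, over both treatments, 2 of the 9 tested members rose and 4 fell (limma, adjusted over all genes tested), beside 20.6% of all tested genes that rose and 19.2% that fell. The error of this test is the departure of the daily induced minus untreated differences from a constant. Variation shared by both arrays of a day was not measured, so these calls do not cover it. Bmi1 rose by 0.98 ± 0.17 (SE, adjusted p = 0.011) and Rnf2 rose by 0.24 ± 0.05 (adjusted p = 0.0168). Jarid2 fell by 0.60 ± 0.10 (SE, adjusted p = 0.0092) and Pcgf6 fell by 0.49 ± 0.07 (adjusted p = 0.00675).

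Both core partners of PRC2 were also lower on day 5. Eed fell by 0.29 ± 0.05 (SE, limma adjusted p = 0.0121) and Suz12 fell by 0.26 ± 0.06 (adjusted p = 0.0226). Ezh2, Pcgf2 and Ezh1 did not pass, with differences of 0.01, 0.01 and 0.22 and adjusted p of 0.96, 0.966 and 0.277. The calls for Rnf2 and Eed were lost when all probe sets of a gene, those below background included, were averaged, at adjusted p of 0.21 and 0.29, and Rnf2 was also lost without the intensity trend (adjusted p = 0.0549). Without the arrays of day 4, Suz12 and Rnf2 no longer passed, at adjusted p of 0.0726 and 0.0614. Of the single steps, the one member call was Pcgf6 between days 4 and 5, where it fell by 0.41 (limma, adjusted p = 0.0404).

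Each treatment was also read on its own, day 5 against day 3, from 2 arrays each and without a test. Bmi1 went up 2.77-fold in linear intensity in untreated cells and 1.77-fold in induced cells. On the log2 scale this was 1.254 against 0.697, and the untreated change was above that of 95.9% of the tested genes. Jarid2 went down by less when induced, at -0.75 untreated and -0.46 induced, as did Pcgf6 at -0.55 and -0.43. Being behind the untreated course was not particular to these genes. In all, 3734 genes rose or fell steadily in untreated cells by a set minimum. The induced array was behind that course for 67.9% of them on day 4 and 73.4% on day 5. On day 5 the induced Bmi1, Jarid2 and Pcgf6 values matched untreated days 4.26, 4.17 and 4.59. The median was day 4.43 over the 2616 genes whose induced value lay within the untreated course. Suz12 changed by almost equal amounts, -0.25 untreated and -0.28 induced, and so did Eed and Rnf2, at -0.30 and -0.28 for Eed and 0.24 and 0.25 for Rnf2. Ezh2 went from 0.15 untreated to -0.13 induced, and Ezh1 from 0.00 to 0.44.

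Other probe sets of the same genes were used as a check, since 29 probe sets matched the 10 members and 21 of them were above the background level on all 6 arrays. The second Bmi1 probe set (1448733_at) measured 65.5, 125 and 232 untreated and 72.0, 84.0 and 171 induced. Its differences of 0.08, -0.38 and -0.35 had the signs and nearly the sizes of the main one on each day. For Suz12 the 6 probe sets had day 5 differences between -0.06 and 0.20, and none of them was lower on all 3 days. The highest single value of Suz12 was 0.66, on day 4, from a dim probe set with a mean intensity of 125. Its lowest was -0.31, on day 3, from another dim one with a mean of 127. The second brightest (1427253_s_at) was at -0.04, 0.02 and -0.02.

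The 3 probe sets of Jarid2 were each higher in the induced array on day 5, by 0.38, 0.49 and 0.67, and those of Pcgf6 by 0.18, 0.40 and 0.37. On days 3 and 4 the probe sets of either gene had differences between -0.07 and 0.10. Both bright probe sets of Rnf2 had differences within 0.05 of 0 on every day. Ezh1 was the exception, because its second probe set (1418290_a_at), with a mean of 61.1 against 215 for the main one, had differences of -0.09, -0.38 and -0.29, opposite in sign to the main one on days 4 and 5. Ezh2 and Ring1 had 1 probe set each, and Eed and Pcgf2 had no second probe set above background. The suffixes s_at and a_at of some main probe sets, Suz12 and Jarid2 among the former, mark probes that can match more than 1 transcript.

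**Figure D3:**
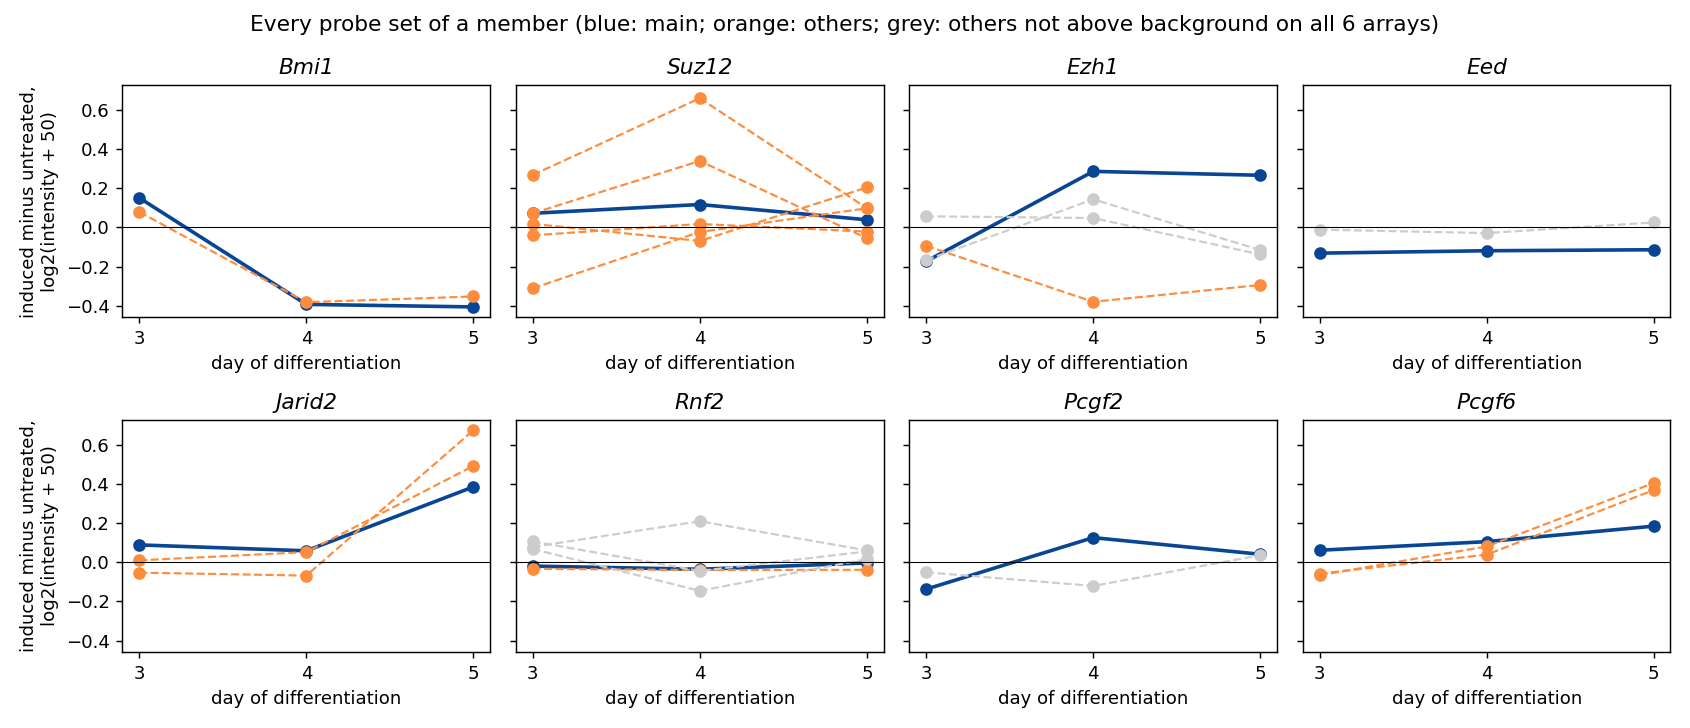
Induced minus untreated difference (vertical axis, log2(intensity + 50)) on each day for every probe set of the 8 members that have several, with the main probe set in blue, others in orange, and those not above background on all 6 arrays in grey. The Bmi1 lines nearly coincide, the Suz12 lines scatter around 0, the 3 lines of Jarid2 and of Pcgf6 turn up on day 5, and the 2 coloured lines of Ezh1 part.

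The promoters of Bmi1 and Suz12 are shown because these genes share the literature label and went opposite ways between days 3 and 5. They are RefSeq windows of 300 bases on GRCm38.p6 that end shortly after the start of the gene, both on the plus strand, with CACGTG and with CCAAT on either strand in capitals. The Bmi1 window is chr2:18676768-18677067 and the Suz12 window chr11:79992856-79993155.
Bmi1: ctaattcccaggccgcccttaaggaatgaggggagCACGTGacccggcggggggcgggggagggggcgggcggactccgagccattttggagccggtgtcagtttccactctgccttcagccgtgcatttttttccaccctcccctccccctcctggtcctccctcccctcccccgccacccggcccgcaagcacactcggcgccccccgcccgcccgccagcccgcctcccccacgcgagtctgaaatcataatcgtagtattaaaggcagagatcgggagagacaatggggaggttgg
Suz12: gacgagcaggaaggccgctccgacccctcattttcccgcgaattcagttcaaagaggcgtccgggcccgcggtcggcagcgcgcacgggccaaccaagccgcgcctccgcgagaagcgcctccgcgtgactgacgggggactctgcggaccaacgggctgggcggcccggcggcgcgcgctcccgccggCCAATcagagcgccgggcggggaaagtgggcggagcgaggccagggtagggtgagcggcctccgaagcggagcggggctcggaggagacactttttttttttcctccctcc
Bmi1 holds 1 CACGTG, the E-box bound by Myc proteins, which 7.15% of 32851 mouse promoter windows hold, and Pcgf2 is the other member with one. Suz12 holds 1 CCAAT, found in 37.4% of windows and also in those of Ezh2, Eed and Jarid2. CACCTG, the E-box that Zeb proteins bind, searched on both strands, was found in the window of Ezh1 alone among the members and in 20.2% of all windows. GGGCGG on either strand was in the windows of 7 of the 10 members and in 35.7% of all windows.
All 11 windows of the 10 members, Jarid2 having 2, held between 10 and 41 CpG dinucleotides, and the median window of all genes held 7. Suz12 had 41, more than 96.5% of windows, and Bmi1 had 23, more than 78.5%. These matches describe the letters of the windows, not binding.

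Other genes of the system were read from lists of Polycomb and Trithorax genes. The background for the counts of each list is that 20.6% of all tested genes rose and 19.2% fell. Among 6 tested genes of canonical PRC1, 2 rose and 3 fell between days 3 and 5 (limma). The median of the list was -0.68 beside 0.003 for all tested genes. It fell in a gap between genes at -1.41 and 0.04, so it describes a split list and not a common decline. Phc1, a polyhomeotic subunit typical of ES cells, measured 4666, 3095 and 1334 untreated and 5302, 3874 and 2542 induced, and fell by 1.41 (adjusted p = 0.00528). Its paralog Phc2 measured 351, 908 and 1092 untreated and 384, 769 and 1000 induced, and rose by 1.39 (adjusted p = 0.00232). Phc1 was higher in the induced array on each day and by 0.90 on day 5, while Phc2 was higher on day 3 and lower on days 4 and 5.

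The chromodomain subunits that read the methylated histone divided the same way. Cbx7, the main one of ES cells, fell by 1.51 (limma, adjusted p = 0.00242) and Cbx6 fell by 1.59 (adjusted p = 0.00535), while Cbx2 rose by 0.59 (adjusted p = 0.00528). On day 5 the induced array was higher by 0.48 for Cbx7 (121 untreated, 187 induced) and by 0.66 for Cbx6 (97.2 and 183), and lower by 0.20 for Cbx2 (1319 and 1138, difference -0.20). Cbx2 was lower in the induced array on all 3 days, with a mean of -0.19 ± 0.03 (SD over 3 days, limma adjusted p = 0.573).

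In variant PRC1, 2 of 12 tested genes rose and 4 fell, and in the PRC2 accessory list 1 of 7 rose and 2 fell (limma, day 5 minus day 3). Over all tested genes 20.6% rose and 19.2% fell. Yaf2, a subunit of variant PRC1, rose by 0.47 (adjusted p = 0.0363) and measured 737, 1012 and 1218 untreated and 673, 778 and 808 induced. Its difference widened from -0.12 to -0.36 and -0.56. Pcgf5, another PCGF subunit, measured 328, 223 and 902 untreated and 293, 279 and 291 induced, so that its difference of -1.48 on day 5 rested on the untreated day 5 array, and it did not pass (adjusted p = 0.257 for day 5 minus day 3). The other variant PRC1 calls were Dcaf7, which rose by 0.49, and L3mbtl2, Mga, Usp7 and Kdm2b, which fell by 0.68, 0.51, 0.38 and 0.22, with limma adjusted p between 0.007 and 0.0445.

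In the PRC2 accessory list Epop, which links PRC2 to elongin, fell by 0.62 (limma, adjusted p = 0.0253), with 176 untreated and 258 induced on day 5. Mtf2, a Polycomb-like protein that brings PRC2 to CpG islands, fell by 0.30 (adjusted p = 0.00889), and Rbbp7, a histone-binding subunit, rose by 0.15 (adjusted p = 0.0181). Phf1 and Phf19, the other Polycomb-like proteins, did not pass, at 0.35 and -0.31.

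Of 6 genes whose products remove the Polycomb marks, 2 rose and 3 fell, beside 20.6% and 19.2% of all tested genes. Kdm6b, a demethylase of H3K27, rose by 1.17 (limma, adjusted p = 0.00767), and measured 2270 untreated and 1493 induced on day 5. Its relative Kdm6a fell by 0.58 (adjusted p = 0.00483). The deubiquitylase cofactor Asxl2 fell by 1.65 (adjusted p = 0.00204) and Asxl1 by 0.31, while the deubiquitylase Usp16 rose by 0.72.

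In the opposing Trithorax list, 4 of 12 tested genes fell and none rose, beside 19.2% of all tested genes that fell and 20.6% that rose. Those that fell were Dpy30, Ash2l, Kmt2b and Rbbp5, by 0.49, 0.44, 0.35 and 0.27, with limma adjusted p between 0.00573 and 0.0442. The largest mean differences between treatments in this list were those of Setd1b, Kmt2d and Kmt2c, at -0.27, -0.18 and -0.15, and the largest on day 5 were those of Kmt2a and Men1, at -0.25 and -0.24. None of the genes of these lists was called for induction or for its change per day. Cdkn2a and Cdkn2b, which PRC1 with Bmi1 is known to silence, were not tested, since their highest intensities were 19.7 and 59.6.

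**Figure D4:**
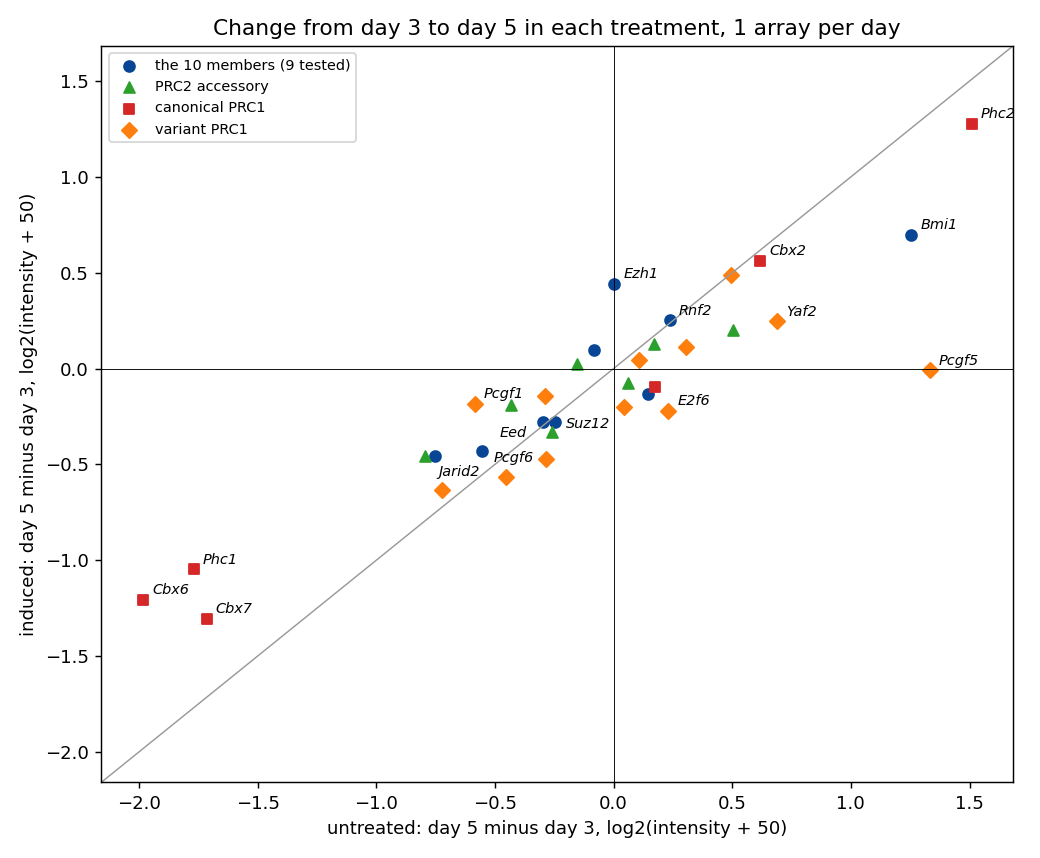
Change from day 3 to day 5 in untreated (horizontal axis) and induced (vertical axis) cells, both on the log2(intensity + 50) scale, for the 9 tested members and for tested genes of 3 further Polycomb lists, with the grey diagonal marking equal change. Each change is a difference of 2 arrays without error. Bmi1 (1.254 and 0.697), Phc1 (-1.77 and -1.05) and Cbx6 (-1.98 and -1.21) lie nearer to 0 on the induced axis. Among all genes with a steady untreated course, 73.4% were behind it in the induced array on day 5. Suz12, Eed and Rnf2 lie on the diagonal, and Pcgf5 stands apart at 1.33 and -0.01.

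The other literature targets of the family were measured beside Bmi1 and Suz12. Cfl2, an actin regulator, was lower in the induced array on each day, at 1686, 1568 and 1922 untreated and 941, 833 and 743 induced. Sec23a, a coat protein of secretory vesicles, was lower too, at 1052, 1215 and 1745 untreated and 744, 829 and 1075 induced. Their differences were already present on day 3, at -0.81 and -0.47, the day on which Bmi1 was at 0.15 and Suz12 at 0.07. Zeb2, the epithelial gene repressor, measured 43.7, 97.6 and 237 untreated and 24.8, 32.7 and 55.9 induced, and its relative Zeb1 131, 256 and 403 untreated and 132, 196 and 169 induced. Zeb2 was below the background level on the induced arrays of days 3 and 4, so its differences on those days are not exact. Zeb1 was at 0.01 on day 3, -0.31 on day 4 and -1.05 on day 5. The mean differences of -0.998 for Cfl2, -0.87 for Zeb2, -0.56 for Sec23a and -0.45 for Zeb1 did not pass (limma, adjusted p between 0.573 and 0.577).

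Markers of the cell types in the cultures also differed between the arrays of a day. The summed intensity of 7 ES cell markers, each above background on all arrays, was 22322, 15497 and 5329 untreated and 21690, 16868 and 10501 induced. That of 5 early mesoderm markers was 1015, 9770 and 9051 untreated and 704, 5320 and 9858 induced, with Mesp1 below background on at least 1 array. Its genes went both ways on day 5. Mixl1 (1714 untreated, 3373 induced) and Eomes (2141 and 3364) were higher when induced. Kdr (3158 and 1763), Pdgfra (1330 and 698) and Mesp1 (709 and 660) were lower. The sum of 6 extraembryonic endoderm markers was 404, 954 and 1956 untreated and 349, 624 and 1354 induced, with Afp and Ttr below background on at least 1 array. On day 5 Sox7 (756 untreated, 166.5 induced) and Gata4 (268 and 157) were lower when induced, with Sox7 the larger gap. Gata6 (816 and 893) and Amn (71.2 and 85.5) were higher. The sum of 5 feeder fibroblast markers lay between 183 and 265 on 5 arrays and at 828 on the untreated day 5 array. Of the 5 genes, 4 were below background on at least 1 array. The value of 828 was mostly Col1a1, at 577, beside Col1a2 at 136 and Postn at 83.2. Thy1 and Dcn were at 28.5 and 3.77 on that array, below the background level.
The sum of 8 proliferation genes varied less, from 38605 to 43932. The ES cell sum was thus closest between treatments on day 3 and about 2-fold higher when induced on day 5. Differences of either sign were widest on day 5 over all tested genes, with an SD of 0.15 on day 3, 0.23 on day 4 and 0.39 on day 5. The part of the marker differences in the Polycomb values was not tested.

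The genes whose pattern over the 6 arrays was most like that of Bmi1 were Tgfb2, Snx25 and Ssr3, with Pearson's r of 0.998, 0.998 and 0.997 on the log2 scale. For Suz12 they were Ears2, Aaas and Fntb, with r of 0.996, 0.996 and 0.994. Over so few arrays, which share day and treatment, 375 tested genes reached r above 0.95 with Bmi1 and 345 with Suz12, so these names are a description only.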

How the data were processed

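The 6 samples were run on Affymetrix MOE430 2.0 arrays. The authors normalized the arrays and modelled expression in dChip, whose version is not given in the sources used here, and the deposited value is 1 model-based intensity per probe set on a linear scale. Of 45037 probe sets, 34945 carried a single gene symbol in the platform annotation, and each of 18193 genes was read from its probe set with the highest mean. Deposited intensities were transformed here to log2(intensity + 50), and a gene entered the tests when its highest intensity was at least 80.1 (the median over genes and arrays), as 9997 did. The background level was the 95th percentile of 76 chemosensory receptor genes.

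Tests used limma 3.58.1 in R 4.3.3 (lmFit, eBayes with an intensity trend, two-sided, Benjamini-Hochberg over all genes tested, threshold 0.05). Induced minus untreated was fitted with day as a factor (2 residual degrees of freedom, 3.05 prior), with day 5 minus day 3 read from the same fit, and treatment by linear day in a fit that leaves 1 degree of freedom. Single-day differences compare 2 arrays and have no test. The p-values measure only the spread over these arrays, whose number limits the precision. The scripts were tested on simulated data.

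The members and lists were chosen with earlier results of these data known. Beside the members, the text names the genes of the Polycomb and Trithorax lists that passed a test or were among the 3 largest differences of their list, Cdkn2a, Cdkn2b, Zeb1, Zeb2, Cfl2, Sec23a, Hprt, and the 3 genes most correlated with Bmi1 and with Suz12. Alternatives covered the pseudocount, the filter, the choice of probe set, the normalization, the variance trend, the model terms and leaving out each day.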

Additional observations from a re-analysis of the deposited data

How the results depend on the processing

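Day 5 minus day 3 kept all 6 member calls with either other pseudocount, either other filter, and quantile or median scaling. All 6 were also kept when the adjustment ran over every probe set. Those calls are of the main probe sets only, and calls of the members' other probe sets were not counted. It kept 4 when the probe sets of a gene were averaged and 5 without the intensity trend. No member was called for induction or for its change per day under any alternative run, and the Bmi1 difference on day 4 lay between -0.44 and -0.34 throughout. Over all genes, induction called 145 genes with treatment by linear day added. The change per day called 283 probe sets when every probe set was tested, 11 genes at a pseudocount of 100 and 2 under quantile normalization, and day 5 minus day 3 called 7270 probe sets, of the larger number tested.

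Signs turned for members that did not pass in the test concerned. Ezh1 turned most when its probe sets, which disagree, were averaged, from 0.13 to -0.0467 for induction and from 0.27 to -0.0702 on day 5. The same averaging turned induction of Pcgf2 (-0.0183) and Rnf2 (0.0151), the change per day of Suz12 (0.0237) and Rnf2 (-0.011), day 5 minus day 3 of Pcgf2 (-0.0997), and the single-day differences of Pcgf6 on day 3 (-0.0215) and of Rnf2 on days 3 and 5 (0.0395 and 0.0175). Day 5 minus day 3 also turned for Ezh2 under median centring (-0.0406) and quantile normalization (-0.0397) and for Pcgf2 under median centring (-0.0399), and the change per day of Rnf2 under quantile normalization (-0.0047). The causes of the other turns were not tested.

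Leaving out each day in turn, with both its arrays, left 1 residual degree of freedom, and without day 3 or day 5 the contrast becomes a step of a single day. Day 5 minus day 3 then called between 241 (without day 3) and 2958 genes, and between 0 (without day 3) and 4 members, with 1 without day 5. Bmi1 ranged from 0.4334 to 0.9759 and Suz12 from -0.2638 to -0.1168. Ezh1 ranged from -0.0249 to 0.2471, Ezh2 from -0.101 to 0.107, and Pcgf2 from -0.087 to 0.0936. Induction called between 0 and 2 genes, and that of Pcgf2 ranged from -0.0488 to 0.0828. Seed matches, with the shorter seed as their alternative, were not run. The day term of the fit pairs the 2 arrays of a day, and without it the adjusted p (limma) of Bmi1 for induction was 1. The number of arrays limits the precision, and Ring1, Cdkn2a and Cdkn2b lay too near the background to be read.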
